A study of Mus musculus with 8 samples.

Results

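Potassium channel genes were taken as every gene of the expression table whose name is Kcn followed by letters and a number, which gave 92 of 55679 genes. Of these, 83 were above 0 in at least 1 library and 9 were listed at 0 in all 8. A mean of at least 0.1 FPKM over the 8 libraries, the level needed for testing, was reached by 58, and a mean of at least 0.5 FPKM, the level needed for describing the change of a single gene, by 39. FPKM is the number of sequenced fragments per kilobase of transcript and scaled to the mapped fragments of the library, so that levels can be set beside each other between genes.

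Potassium channels return the cardiac membrane to rest after each beat, and their mix sets the duration of the action potential. Pore-forming subunits fall into voltage-gated channels, inward rectifiers, tandem pore (K2P) background channels, and channels opened by calcium or sodium. Auxiliary subunits bind the pores and alter their gating or their number at the surface. The mouse ventricle repolarises mainly through a fast transient outward current (Ito) and slowly inactivating delayed rectifier currents (IK,slow), with a strong inward rectifier (IK1) holding the resting potential.

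RNA was measured in left ventricles of male wild-type C57BL/6J mice that received saline (control group, n = 4) or angiotensin II (ANG II, a pressor peptide) at 1500 ng/kg/min (ANG II group, n = 4) for 7 days through an osmotic mini-pump under the skin. Hearts were flushed with saline before dissection, and polyadenylated RNA was sequenced. The control mice carried a pump and no peptide.

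The FPKM values corresponded to 14455654 to 16564828 fragments per library. Defining markers of the labelled tissue were abundant: the 10 cardiomyocyte markers summed to 45146 to 46265 FPKM in control and 33290 to 36371 in the ANG II group. Mitochondrially encoded RNA took 26.3% to 26.95% of the control libraries and 19.2% to 21.8% of the ANG II libraries. In whole tissue, fewer cells of a type and less RNA per cell cannot be told apart. The marker lists of other cells moved with the groups. Summed fibroblast markers were at 569 to 847 FPKM in control and 3444 to 4098 in the ANG II group, with 9 of 10 genes called higher. Summed macrophage markers were at 283 to 362 FPKM and 659 to 930 FPKM, with 10 of 10 called higher.

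A small number of genes held most of the potassium channel RNA. Kcnj11, the pore of the ATP-sensitive channel, Kcnip2, the auxiliary subunit of the Ito channels, Kcnk3, a K2P background channel, and Kcng2, a silent modifier of voltage-gated pores, together made up 66.95% of the summed FPKM of all 92 genes in control and 60.1% in ANG II. In control, Kcnip2 was at 129.8 ± 11.9 FPKM, Kcnk3 at 116 ± 4.37, Kcnj11 at 113 ± 3.52 and Kcng2 at 85.9 ± 8.61 (SD, n = 4 each). The control ranges of Kcnip2 and Kcnk3 overlapped, as did those of Kcnk3 and Kcnj11, whereas Kcng2 lay apart from the genes above and below it. Next in order were Kcnq1 at 29.8 ± 2.16 FPKM and Kcnh2 at 28.1 ± 5.45 FPKM (SD, n = 4), whose ranges overlapped and which carry the slow and rapid delayed rectifier currents. From there the levels declined in small steps, and of the 34 neighbouring pairs from Kcnq1 down, 31 had overlapping control ranges. In all, 11 genes had a mean of at least 10 FPKM, 27 of at least 1 FPKM, and 25 genes were above 0 with a mean under 0.1 FPKM.

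**Figure D1:**
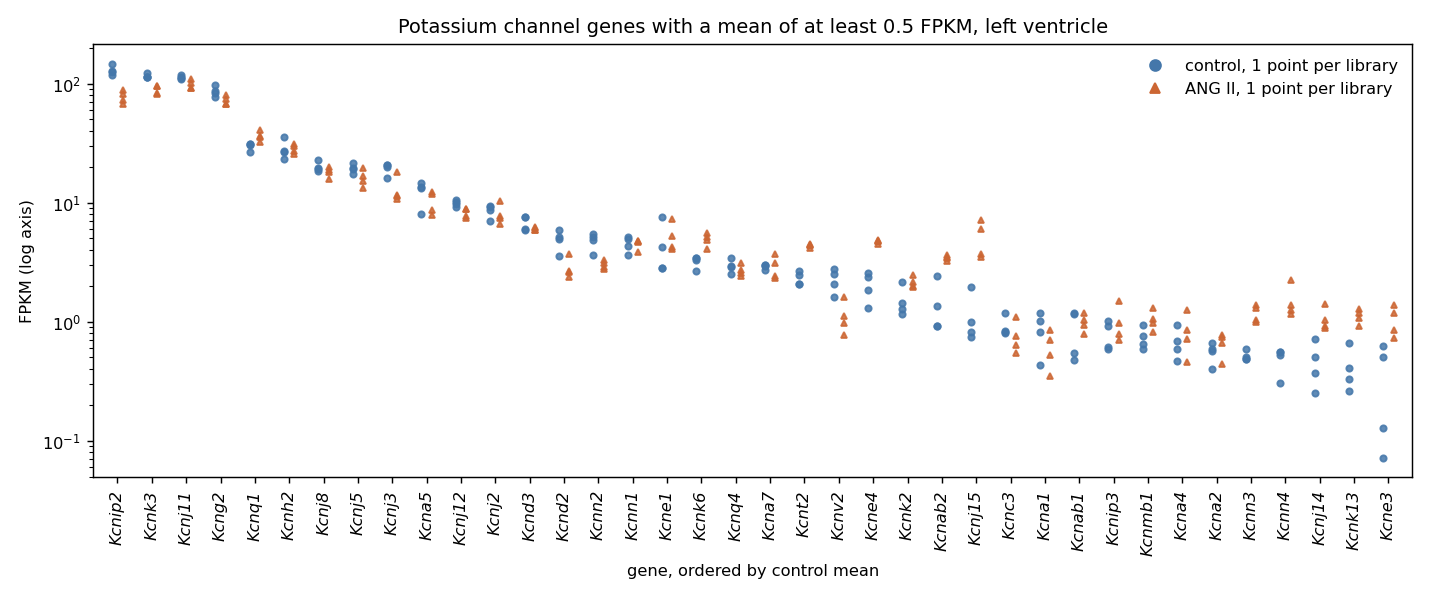
FPKM (log axis) of 38 of the 39 potassium channel genes averaging 0.5 FPKM or more, ordered by control mean, with 1 circle per control library and 1 triangle per ANG II library. Kcnip2, Kcnk3, Kcnj11 and Kcng2 stand above the other genes in both groups.

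The comparison of ANG II with control asked how the channel genes changed in the hypertensive ventricle. Genes were called with limma on log2(FPKM + 1) when the Benjamini-Hochberg adjusted p over all 19364 genes tested was under 0.05 and the absolute log2 fold change over 0.5. Of the 58 channel genes tested, 9 were called higher and 5 lower, and all 14 were among the 39 with a mean of at least 0.5 FPKM. Among all genes tested, 14.0% were called higher and 1.41% lower, and among all those averaging 0.5 FPKM or more, 17.9% were called higher and 1.79% lower. The 5 lower genes were Kcnip2, Kcnv2, Kcnd2, Kcnj3 and Kcnn2. The 9 higher genes were Kcnj15, Kcne4, Kcnab2, Kcnn4, Kcnt2, Kcne3, Kcnk13, Kcnn3 and Kcnj14. The lower genes had control means of 2.24 to 129.8 FPKM, and the higher genes of 0.332 to 2.33 FPKM, a contrast that the rules fix in part. Kcnn4, Kcnj14, Kcnk13 and Kcne3 had control means under 0.5 FPKM and reached the minimum through their ANG II values, and on the log2(FPKM + 1) scale a gene with a control level under 0.414 FPKM cannot be called lower.

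By adjusted p alone, 20 of the 39 genes passed, 11 higher and 9 lower, against 41.7% of all genes at that level in either direction, 35.5% higher and 6.18% lower. The groups did not overlap for 11 higher and 4 lower genes of the 39, against 35.2% and 6.14% of all genes at that level. The median log2 fold change of the 58 genes was 0.04, beside 0.15 for all genes tested, and that of the 39 genes was 0.00, beside 0.19. By class, inward rectifiers had 2 genes called higher and 1 lower of 8 with a mean of at least 0.5 FPKM, auxiliary subunits 3 and 1 of 8, calcium- or sodium-activated channels 3 and 1 of 5, K2P channels 1 and 0 of 4, and voltage-gated pores 0 and 2 of 14.

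The scaling of the libraries set part of this split. With median-of-ratios scaling, under which the median of all genes tested was 0.0042 instead of 0.15, 6 channel genes were called higher and 6 lower, beside 8.63% and 4.15% of all genes tested. Of these 12 genes, 11 were shared with the values as deposited. With quantile scaling the count was 4 higher and 7 lower, beside 7.3% and 5.09% of all genes tested, and without mitochondrially encoded genes 7 higher and 6 lower, beside 10.9% and 2.33%. Median-of-ratios scaling lowered the log2 fold change of each of the 39 genes, by a difference of −0.09 to −0.23, so that 9 were higher and 13 lower by adjusted p alone, against 18.1% and 16.8% of all genes averaging 0.5 FPKM or more. Without ANG II replicate 1, 8 were called higher and 3 lower, beside 12.8% and 1.26% of all genes tested. All 5 lower genes and 6 of the 9 higher genes held their call under median-of-ratios scaling, and no called gene changed its direction under any alternative. The log2 fold changes also depended on the treatment of low values. With a pseudocount of 0.1 in place of 1, those of the 9 higher genes were 0.89 to 2.10 and those of the 5 lower genes −0.60 to −0.96, and 12 genes were called higher and 5 lower, beside 17.7% and 2.01% of all genes tested. On the recovered fragments (voom), which changes the input and the model as well, they were 0.91 to 2.21 and −0.61 to −1.02, with 16 called higher and 5 lower, beside 18.9% and 2.03%.

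**Figure D2:**
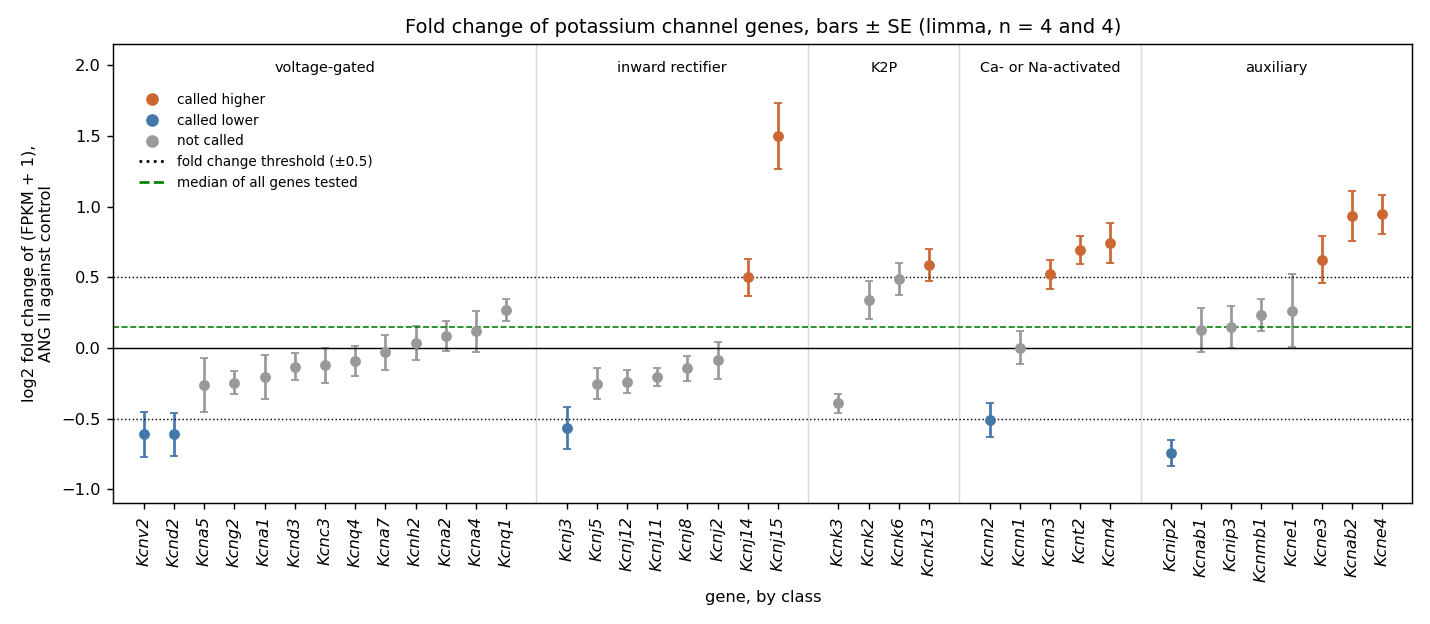
Log2 fold change of (FPKM + 1), ANG II against control, for 38 of the 39 genes by class, with bars of 1 SE (limma, n = 4 and 4), dotted lines at the threshold of 0.5 and a dashed line at the median of all genes tested (0.15). Voltage-gated pores lie mostly at or below 0, whereas the inward rectifiers, the calcium- or sodium-activated channels and the auxiliary subunits hold called genes on both sides.

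**Figure D3:**
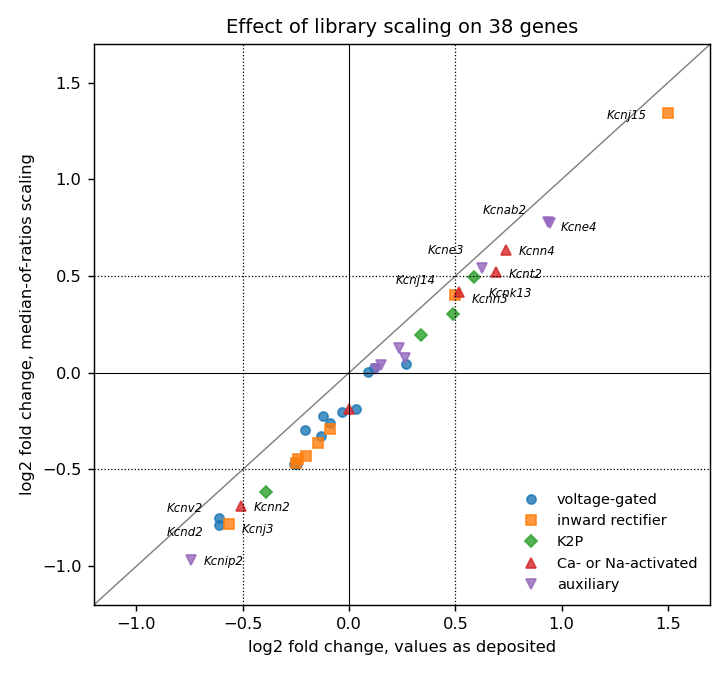
Log2 fold change of 38 of the 39 genes with the values as deposited (horizontal) and with median-of-ratios scaling (vertical), dotted lines at 0.5 and −0.5. All points lie below the line of equality, and the 5 genes called lower stay below −0.5 on both axes.

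The transient outward current is carried by pores of the Kcnd family, which need Kcnip2 for their expression at the surface. Kcnip2 was at 126, 119, 128 and 147 FPKM in control libraries 1 to 4 and at 67.2, 88.4, 72.5 and 81.6 FPKM in ANG II libraries 1 to 4. Every ANG II library lay under every control library. The mean fell by 40.4%, and the log2 fold change was −0.74 ± 0.0924 (SE; adjusted p = 0.000279), and the call was made in 17 of 17 alternatives. Kcnd2, a pore of the fast current, was at 3.57, 5.84, 5.14 and 4.97 FPKM in control and at 2.37, 2.60, 3.71 and 2.67 FPKM in ANG II. The highest ANG II library, replicate 3, lay just above the lowest control library, replicate 1. Kcnd2 fell by 41.8%, with a log2 fold change of −0.61 ± 0.150 (SE; adjusted p = 0.0110), also in 17 of 17 alternatives.

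The other Ito pores described here were not called. Kcnd3, the more abundant Kcnd pore, was at 6.78 ± 0.945 FPKM in control and 6.06 ± 0.143 in the ANG II group (SD, n = 4 each; adjusted p = 0.334). Its log2 fold change was −0.13, and it was −0.33 with median-of-ratios scaling (adjusted p = 0.0206) and −0.44 with quantile scaling (adjusted p = 0.00413), with a range of the adjusted p over the alternatives of 0.00413 to 0.584. Kcna4, the pore of the slow transient outward current, was at 0.668 ± 0.195 FPKM and 0.821 ± 0.335 FPKM (adjusted p = 0.586). The ratio of Kcnip2 to Kcnd3 was 15.8 to 24.99 in control and 11.3 to 14.3 in ANG II, with no overlap (means 19.6 ± 4.31 and 12.8 ± 1.29, SD, n = 4 each). The ratio of Kcnip2 to Kcnd2 was 27.5 ± 6.36 in control and 28.1 ± 6.15 in ANG II, with overlapping groups. Dpp6, which encodes a further partner of the Kcnd pores, was listed at 0 in all control libraries and at up to 0.102 FPKM in ANG II, below the level for testing.

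The 250 bases before the RefSeq start of Kcnip2 and Kcnd2, the pair of Ito genes that fell, and of Kcnj15, the gene with the highest fold change, are given in the direction of the gene (GRCm38.p6). An entry was found for 67 of the 92 genes. Capitals mark matches on either strand. The letters searched were TATAAA for the TATA box, then GGGCGG for the GC box, then TGANTCA for the AP-1 site, and finally CANNTG for the E-box, where N is any base. The windows lie at chr19:45816064-45816313 on the minus strand for Kcnip2, at chr6:21215096-21215345 on the plus strand for Kcnd2 and at chr16:95257308-95257557 on the plus strand for Kcnj15. No GENCODE M21 transcript of Kcnd2 holds the bases that follow its RefSeq start.
Kcnip2: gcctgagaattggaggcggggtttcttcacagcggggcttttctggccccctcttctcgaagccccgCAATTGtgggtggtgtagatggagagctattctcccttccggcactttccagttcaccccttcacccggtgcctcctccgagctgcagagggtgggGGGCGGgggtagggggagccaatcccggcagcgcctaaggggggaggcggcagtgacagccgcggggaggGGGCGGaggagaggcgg
Kcnd2: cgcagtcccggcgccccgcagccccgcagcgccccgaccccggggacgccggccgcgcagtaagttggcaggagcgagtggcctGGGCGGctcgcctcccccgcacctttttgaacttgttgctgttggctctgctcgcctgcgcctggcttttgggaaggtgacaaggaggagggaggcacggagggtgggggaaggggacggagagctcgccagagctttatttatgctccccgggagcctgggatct
Kcnj15: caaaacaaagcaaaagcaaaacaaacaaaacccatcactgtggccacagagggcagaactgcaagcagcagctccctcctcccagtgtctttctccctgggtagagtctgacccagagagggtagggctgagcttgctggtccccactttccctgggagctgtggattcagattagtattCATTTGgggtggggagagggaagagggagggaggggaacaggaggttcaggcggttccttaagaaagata

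The Kcnip2 window held 2 GC boxes and 1 E-box, the Kcnd2 window 1 GC box and the Kcnj15 window 1 E-box. None of the 3 windows held the TATA or the AP-1 letters. Of 32851 RefSeq windows of the same length, 32.7% held a GC box, 66.2% an E-box, 12.4% the TATA letters and 6.75% the AP-1 letters. A match describes the letters only.

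Kcna5 is the ultrarapid pore of IK,slow, and Kcnv2 and Kcng2 are silent subunits that open no channel alone and modify other voltage-gated pores. Kcnv2 was at 2.06, 2.52, 2.78 and 1.61 FPKM in control and at 0.981, 0.773, 1.11 and 1.62 FPKM in ANG II. The groups touched only at replicate 4 of each, and the mean fell by 49.98% (log2 fold change −0.61 ± 0.158, SE; adjusted p = 0.0140; 17 of 17 alternatives). Kcna5 was at 12.4 ± 2.96 FPKM in control and 10.1 ± 2.21 in the ANG II group (SD, n = 4 each; log2 fold change −0.26, adjusted p = 0.334), with −0.47 under median-of-ratios scaling. Kcng2, singled out here for its level, was at 85.9 ± 8.61 and 72.3 ± 6.20 FPKM (adjusted p = 0.0430) with a log2 fold change of −0.25, under the fold threshold, and −0.47 under median-of-ratios scaling, also not called.

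None of the classical delayed rectifier genes was called. Kcnq1, the slow delayed rectifier pore, was at 31.1, 31.0, 30.5 and 26.6 FPKM in control and at 36.1, 40.8, 35.5 and 32.2 FPKM in ANG II. All ANG II libraries lay above all control libraries, but the log2 fold change of 0.27 ± 0.0795 (SE; adjusted p = 0.0264) was under the fold threshold. With median-of-ratios scaling it was 0.05 (adjusted p = 0.729, with a range over the alternatives of 0.0155 to 0.729). Kcnh2, the rapid delayed rectifier pore, was at 28.1 ± 5.45 and 28.5 ± 2.53 FPKM (log2 fold change 0.03, adjusted p = 0.858), and its sign turned under median-of-ratios scaling (−0.19). Kcne1, the classical partner of Kcnq1, varied widely within control, from 2.82 to 7.54 FPKM, and was at 4.10 to 7.23 FPKM in ANG II (adjusted p = 0.470), with overlapping groups.

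Of the other Kcne subunits, which alter Kcnq1 and further voltage-gated pores, Kcne4 and Kcne3 were called higher, and Kcne2 was at up to 0.0754 FPKM, below the level for testing. Kcne4, known as an inhibitory partner, was at 1.30, 1.84, 2.35 and 2.57 FPKM in control and at 4.84, 4.798, 4.76 and 4.51 FPKM in ANG II. The groups lay well apart, and the ANG II libraries lay close together. The mean ratio was 2.35, with a log2 fold change of 0.95 ± 0.139 (SE; adjusted p = 0.000708; 17 of 17 alternatives). Kcne3 was at 0.0720 to 0.619 FPKM in control, which was 1 to 9 fragments, and at 0.725 to 1.39 FPKM in ANG II, which was 11 to 20 fragments. A total of 2 control libraries held no more than the floor of 3 fragments, so no fold is given. Its adjusted p was 0.0162, and the call was lost without control replicate 3 (adjusted p = 0.0510) and under quantile scaling (adjusted p = 0.0688), the range over the alternatives being 0.0131 to 0.0688. Kcnab2, a cytoplasmic beta subunit of Kv pores related to aldo-keto reductases, was at 2.42, 1.36, 0.915 and 0.914 FPKM in control and at 3.498, 3.25, 3.43 and 3.65 FPKM in ANG II. It rose 2.47-fold with groups apart, and its log2 fold change was 0.93 ± 0.178 (SE; adjusted p = 0.00305; 17 of 17 alternatives).

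The strong inward rectifier IK1 rests on Kcnj2 and Kcnj12. Kcnj12 was at 9.11 to 10.54 FPKM in control and at 7.46 to 8.87 FPKM in ANG II, without overlap and with a log2 fold change of −0.24 ± 0.0807 (SE; adjusted p = 0.0449). This was under the fold threshold, and the threshold was passed only under quantile scaling (−0.51). Kcnj2 was at 8.52 ± 1.11 and 8.003 ± 1.58 FPKM (log2 fold change −0.09, adjusted p = 0.651), and the log2 fold change was −0.29 with median-of-ratios scaling. Kcnj14, a less abundant strong rectifier, was at 0.253 to 0.718 FPKM in control and 0.885 to 1.41 in the ANG II group. It stood at the edge of the call, with a log2 fold change of 0.50 ± 0.130 (SE; adjusted p = 0.0147), on 6 to 18 fragments in control. The call was lost without control replicate 1 (0.43), control replicate 3 (0.47) or ANG II replicate 3 (0.42), and under 3 scalings. Of its 50-base words, 30.8% were shared with other genes, most often with Gm5522, which was listed at 0, so the values are uncertain.

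The ATP-sensitive channel couples the membrane to energy state, with a Kcnj11 or Kcnj8 pore and a regulatory sulfonylurea receptor. Kcnj11 was at 113 ± 3.52 FPKM in control and 98.1 ± 8.80 in the ANG II group (SD, n = 4 each), with overlapping groups and a log2 fold change of −0.20 ± 0.0644 (SE; adjusted p = 0.0339), under the fold threshold. Kcnj8 was at 20.04 ± 1.955 and 18.03 ± 1.66 FPKM (log2 fold change −0.14, adjusted p = 0.231). With median-of-ratios scaling the log2 fold change of Kcnj11 was −0.43 (adjusted p = 0.000811, in a range of 0.000811 to 0.0948 over the alternatives) and that of Kcnj8 −0.36 (adjusted p = 0.00885, in a range of 0.00832 to 0.472), and neither was called under any alternative. Abcc9, the receptor of the vascular and sarcolemmal forms, was at 70.7, 73.8, 78.7 and 75.8 FPKM in control and at 48.0, 48.2, 51.0 and 56.9 FPKM in ANG II. Abcc9 fell in every ANG II library, with a log2 fold change of −0.55 (adjusted p = 0.000201), whereas Abcc8, the other receptor, was at 16.5 ± 0.214 and 15.3 ± 3.15 FPKM and was not called (adjusted p = 0.474).

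The G protein-gated current IKACh, opened by vagal acetylcholine and carried mainly in atrium and nodes, joins Kcnj3 and Kcnj5. Kcnj3 was at 20.0, 20.5, 20.8 and 16.1 FPKM in control and at 11.4, 10.7, 18.01 and 11.6 FPKM in ANG II. ANG II replicate 3 lay inside the control range and the other ANG II libraries lay under it. Kcnj3 fell by 33.1%, with a log2 fold change of −0.57 ± 0.151 (SE; adjusted p = 0.0162). The call was lost without ANG II replicate 1 (−0.52, adjusted p = 0.0547), replicate 2 (−0.49, adjusted p = 0.0522) or replicate 4 (−0.53, adjusted p = 0.0531), and the adjusted p ranged from 0.00107 to 0.0547 over all alternatives. The values of Kcnj3 are uncertain: Gm26794, an antisense neighbour, covers 31.1% of its exons, and whether counting kept the strands apart is not given in the sources used here. The same limit holds to a lesser degree for other channel genes. Opposite-strand exons cover 9.1% of the exons of Kcng2, 8.1% of Kcnn2, 5.8% of Kcnk3 and 5.3% of Kcnj15.

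Kcnj5 was at 19.6, 21.6, 19.3 and 17.2 FPKM in control and at 13.3, 16.9, 19.7 and 15.2 FPKM in ANG II, with a log2 fold change of −0.25 (adjusted p = 0.116). It was −0.47 with median-of-ratios scaling and −0.49 with quantile scaling (adjusted p = 0.0133 in both, the lowest of a range up to 0.276), still not called. Its highest ANG II library was again replicate 3. The ratio of Kcnj3 to Kcnj5 was 0.932 to 1.08 in control and 0.634 to 0.915 in ANG II, without overlap. Atrial markers moved between these libraries. The summed level of the 6 atrial genes was 11.4 to 65.2 FPKM in control and 76.4 to 256 in the ANG II group, lowest in control replicate 3 and highest in ANG II replicate 3, with 2 of 5 tested called higher and Bmp10 at or near 0. Myl7, the atrial light chain, was at 0.205 FPKM in control replicate 3 and 89.6 FPKM in ANG II replicate 3. The part of atrial tissue in the levels of Kcnj3 and Kcnj5 was not tested. Without ANG II replicate 3, the log2 fold change of Kcnj3 was −0.73 (adjusted p = 0.00107).

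**Figure D4:**
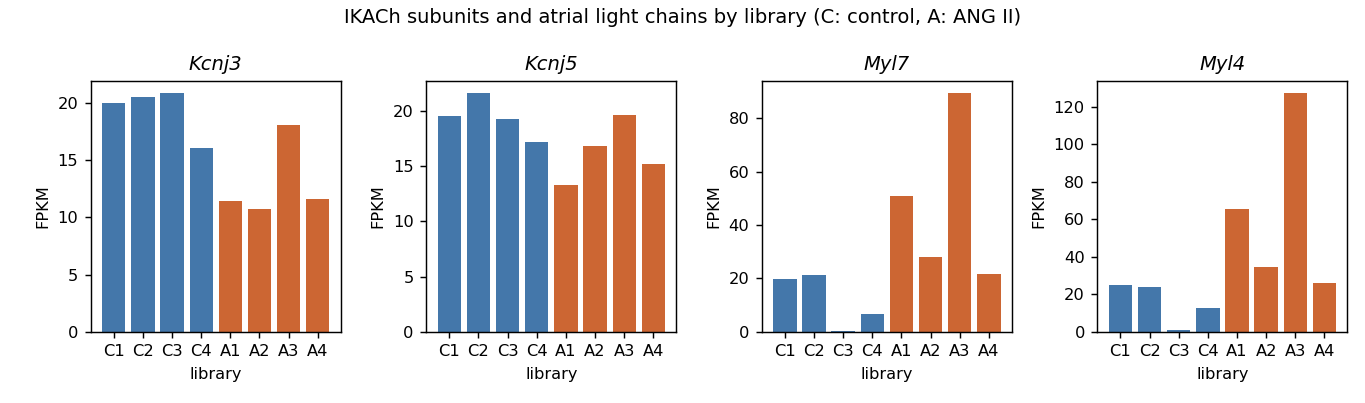
FPKM per library of the IKACh subunits Kcnj3 and Kcnj5 and of the atrial light chains Myl7 and Myl4 (C: control, A: ANG II, numbers are replicates, axes from 0). ANG II replicate 3 is the highest ANG II library in all 4 panels, and control replicate 3 has the lowest light chain levels.

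Kcnj15, an inward rectifier best known from epithelia, had the highest fold change of the 39 genes. It was at 0.991, 0.821, 0.744 and 1.96 FPKM in control and at 5.997, 7.08, 3.52 and 3.67 FPKM in ANG II, resting on 36 to 90 and 160 to 339 fragments. The groups lay apart, although the ANG II libraries differed among themselves, with replicates 1 and 2 above replicates 3 and 4. The mean ratio was 4.49, and the log2 fold change 1.499 ± 0.230 (SE; adjusted p = 0.000907) with a range of 1.22 under quantile scaling to 2.21 with voom. It was called in 17 of 17 alternatives, and on the log2(FPKM + 1) scale, which compresses low genes, it was the one channel gene with an absolute log2 fold change over 1.

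K2P channels pass the background current. Kcnk3 was at 114, 114, 123 and 113 FPKM in control and at 80.9, 95.7, 82.5 and 94.5 FPKM in ANG II. Every ANG II library was lower, by a mean of −23.8%, yet the log2 fold change of −0.39 ± 0.0651 (SE; adjusted p = 0.00140) was within the fold threshold. It was called lower with median-of-ratios scaling (−0.62), with quantile scaling (−0.56) and without mitochondrially encoded genes (−0.50). Kcnk6 was at 2.65 to 3.46 FPKM in control and 4.10 to 5.50 in the ANG II group, without overlap. Its log2 fold change of 0.49 ± 0.111 (SE; adjusted p = 0.00756) was just under the threshold and passed it when control replicate 1, 2 or 3 or ANG II replicate 2 was left out (0.50 to 0.56), with a pseudocount of 0.1 (0.60) and with voom (0.61). Median-of-ratios scaling gave 0.30 (adjusted p = 0.0565) and quantile scaling 0.16 (adjusted p = 0.270). Kcnk13, a channel known from microglia, was at 0.260 to 0.661 FPKM in control and at 0.922 to 1.29 FPKM in ANG II. It rose by 0.59 ± 0.116 on the log2 scale (SE; adjusted p = 0.00363), and the call was lost under median-of-ratios (0.49) and quantile scaling (0.42).

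Calcium-activated Kcnn channels follow intracellular calcium. Kcnn2, the small-conductance channel known from cardiac myocytes, was at 3.60, 5.45, 5.11 and 4.81 FPKM in control and at 2.77, 3.30, 2.88 and 3.101 FPKM in ANG II. The groups lay apart and the mean fell by 36.5%, but the log2 fold change of −0.51 ± 0.120 (SE; adjusted p = 0.00905) was at the threshold. Leaving out control replicate 2, 3 or 4 or ANG II replicate 1 or 3 brought it to −0.45 to −0.50 and ended the call. Kcnn1 was at 4.51 ± 0.683 and 4.50 ± 0.461 FPKM (SD, n = 4 each; adjusted p = 0.996).

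The other 3 genes of this class that were called rose. Kcnn4, the intermediate-conductance channel known from lymphocytes, macrophages and fibroblasts, was at 0.520, 0.555, 0.559 and 0.303 FPKM in control and at 1.26, 1.16, 2.22 and 1.38 FPKM in ANG II. The groups lay apart, with 8 to 16 fragments in control and 32 to 58 in ANG II. The mean ratio was 3.11 and the log2 fold change 0.74 ± 0.142 (SE; adjusted p = 0.00311; 16 of 16 alternatives). In the remaining alternative, a filter at a mean of 1 FPKM, Kcnn4 was not tested. Kcnn3, a further small-conductance channel, was at 0.482 to 0.593 FPKM in control and 0.992 to 1.39 in the ANG II group. Its log2 fold change was 0.52 ± 0.10003 (SE; adjusted p = 0.00320), and the call was lost without ANG II replicate 1 (0.49) or replicate 4 (0.47) and under 3 scalings. Kcnt2, a sodium-activated channel, was at 2.69, 2.09, 2.08 and 2.45 FPKM in control and at 4.52, 4.13, 4.41 and 4.39 FPKM in ANG II. Both groups were tight and apart, with a log2 fold change of 0.69 ± 0.0968 (SE; adjusted p = 0.000536) that dropped under the threshold only with quantile scaling (0.37).

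**Figure D5:**
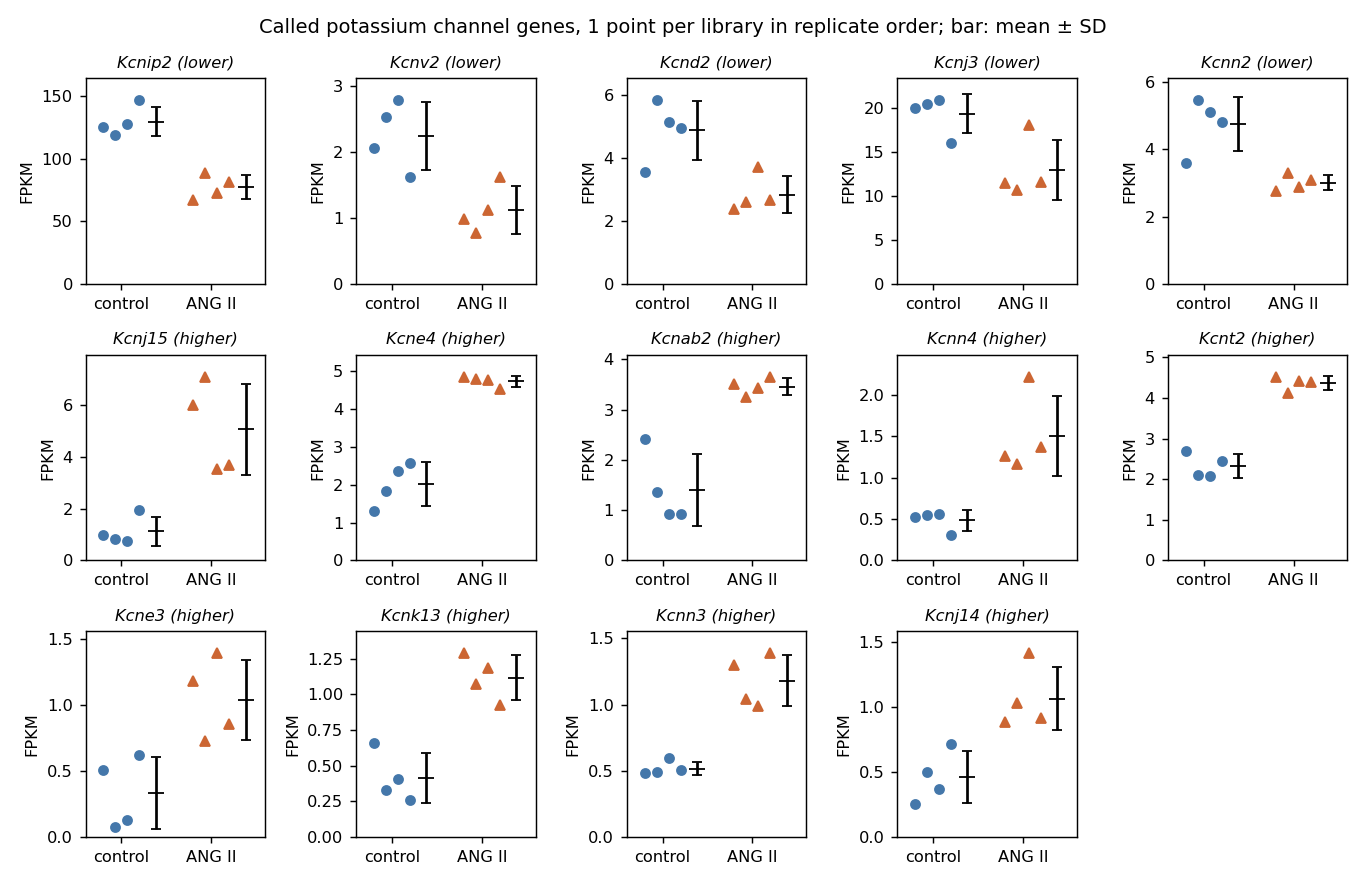
FPKM of the 14 called genes, 1 point per library in replicate order, with the mean ± SD (n = 4) beside them and axes from 0. The groups are apart in 11 panels, the exceptions being Kcnv2, Kcnd2 and Kcnj3.

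The cell type lists were read beside these calls. The channel genes called higher were picked for their rise and those called lower for their fall. A direction shared with a list was thus fixed in advance. The fibroblast and macrophage lists given above had genes called higher, as did the proliferation and T cell lists. Of the proliferation list, 8 of 8 were called higher (summed 6.70 to 14.2 FPKM in control and 32.6 to 78.8 in ANG II). Of the T cell list, 4 of 10 were called higher (summed 3.38 to 12.6 and 10.3 to 18.1 FPKM). Endothelial markers had 2 of 10 called higher, smooth muscle and pericyte markers 4 of 10, and Schwann cell and neuron markers 2 of 8. The cardiomyocyte list held 2 of 10 genes called lower, Myh6 and Tnni3, and 7 of 10 lay apart and lower. Its median log2 fold change was −0.33, with 8 genes under 0 and 2 above 0. With median-of-ratios scaling 5 of the 10 were called lower, and with quantile scaling 1, with neither Myh6 (−0.10) nor Tnni3 (−0.37) called and a median of −0.10. Under quantile scaling 7 fibroblast, 9 macrophage, 8 proliferation, 2 T cell, 1 Schwann cell and neuron, 1 smooth muscle and pericyte and 0 endothelial markers were called higher. The part of these cells in the channel results was not tested.

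Levels were also summed over each class, with the values as deposited. The auxiliary subunits summed to 141 ± 11.9 FPKM in control and 95.5 ± 8.22 in ANG II, the inward rectifiers to 192 ± 9.36 and 168 ± 7.26, and the K2P channels to 122 ± 4.54 and 97.6 ± 7.19 (SD, n = 4 each). These 3 sums were lower in every ANG II library, and were so under each of the 3 other scalings. The gene with the highest control mean was also left out of each sum, a step chosen after the values were seen. Without Kcnip2 the auxiliary subunits summed to 11.02 ± 2.50 FPKM in control and 18.1 ± 1.79 in the ANG II group. Without Kcnk3 the K2P channels summed to 6.03 ± 0.988 and 9.17 ± 0.853 FPKM, and without Kcnn2 the calcium- or sodium-activated channels to 8.21 ± 0.815 and 12.4 ± 0.785 FPKM. These 3 remainders were apart and higher in ANG II, except under quantile scaling, where they overlapped. Each of the 3 genes left out had a lower mean in ANG II. Leaving it out therefore raised the rest in ANG II relative to control by construction. The control ranges of Kcnn2 and Kcnn1 overlapped, so the choice of Kcnn2 was a close one. Without Kcnj11 the inward rectifiers (79.3 ± 5.91 and 70.3 ± 6.88 FPKM) and without Kcng2 the voltage-gated pores (111 ± 10.7 and 110 ± 3.42 FPKM) overlapped, and both were apart and lower under median-of-ratios and quantile scaling. With all members, the voltage-gated pores overlapped, at 197 ± 18.9 and 182 ± 9.20 FPKM, and lay apart and lower under the other scalings. The calcium- or sodium-activated channels were apart and higher in ANG II, at 12.95 ± 0.303 and 15.4 ± 0.631 FPKM, but overlapped under the other scalings, with the lower mean in ANG II under quantile scaling (14.8 ± 0.965 and 13.4 ± 0.393). All 92 genes together were at 649 to 694 FPKM in control and 535 to 588 in the ANG II group.

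A list of partners and regulators of these channels held 21 genes. Of these, 16 were tested, 1 was called higher and 1 lower, beside 14.0% and 1.41% of all genes tested. The higher gene was Fhl1, a LIM protein known to bind Kcna5 channels, at 84.5, 92.9, 78.8 and 91.6 FPKM in control and at 162, 174, 155 and 130 FPKM in ANG II (log2 fold change 0.82, adjusted p = 0.00014). The lower gene was Abcc9, described above. The median log2 fold change of the 16 genes was 0.00, beside 0.15 for all genes tested, and −0.22 with median-of-ratios scaling, beside 0.0042.

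Of the 39 genes, 11 met no rule for separate description, with log2 fold changes of −0.25 to 0.34, and 1 of them, Kcng2, had an adjusted p under 0.05. Kcng2 and Kcnn1, which are among these 11, were given above all the same. The 19 genes with a mean of 0.1 to 0.5 FPKM are given by count alone. None was called with the values as deposited, beside 1.6% called higher and 0.234% called lower among all genes at that level. By adjusted p alone, 3 were higher and 0 lower (6.22% and 0.937% of all genes at that level), and 6 were called higher on recovered fragments (9.37%). The remaining 34 genes had a mean under 0.1 FPKM or were at 0, and their single changes were not described.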

How the data were processed

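Left ventricular RNA of 4 control and 4 ANG II mice was measured. The table used here, deposited by the authors, holds FPKM values with 1 column per library. The study names more RNA-seq data than these 8 libraries, which were not analysed here. The submitters' notes name Bowtie2, HISAT and RSEM, with no role. The genome build, the annotation and the use of strand are not given in the sources used here. Gene IDs were matched to GENCODE M21 (GRCm38; 55141 of 55679 found), and the steps of low values gave the fragments behind them: of values under 60 fragments, 97.6% to 99.3% were whole within 0.05. The floor was set at 3 fragments and covers counting error only.

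Groups came from the sample titles. The comparison used limma 3.58.1 in R 4.3.3 with a variance trend on log2(FPKM + 1), over all genes averaging 0.1 FPKM or more, without covariates, and two-sided p-values adjusted by the Benjamini-Hochberg method. Calls needed an adjusted p under 0.05 and an absolute log2 fold change over 0.5, the thresholds of the study, whose logarithm base is not given. Fold changes on this scale understate those of low genes. The script was tested on simulated data. Nothing says that replicates of a group share or do not share a litter, and p-values measure the spread between these libraries. Same-numbered libraries did not deviate together (correlations −0.03 to 0.06), so the numbers were not used as pairs.

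Genes were named when called with a mean of at least 0.5 FPKM, when they carry a main cardiac current (16 genes), or when the groups did not overlap, and partners when called, with Abcc8, Abcc9 and Dpp6. A gene that this rule picks is not reported here singly or drawn, and counts and sums keep it. The genes and lists were chosen with earlier results of these data known. Sequence sharing was counted in 50-base words of GENCODE transcripts. Alternatives changed the pseudocount, the filter, the scaling, the variance trend, the thresholds and the replicate block, used voom on the fragments, or left out each library in turn. Figures were drawn with matplotlib 3.10.9.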

Additional observations from a re-analysis of the deposited data

Results flagged for a closer look

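In 4 of 56 sets of 4 libraries, 1 library stood apart from the other 3, with a gap to the nearest of them above the 95% critical value of Dixon's test. Chance alone does so in about 1 set of 20. For Kcnj3 in ANG II, replicate 3 was the highest at 18.01 FPKM. For Kcnn4 in control, replicate 4 was the lowest at 0.303 FPKM, on 8 fragments. For Kcnk3 in control, replicate 3 was the highest at 123 FPKM. For Kcnq1 in control, replicate 4 was the lowest at 26.6 FPKM. Of these, the call of Kcnn4 held without that library, and Kcnk3 and Kcnq1 were not called with or without it. The cause was not tested in any of them.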

How the results depend on the processing

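Over the named genes, 521 alternative values were computed for 31 results: 480 kept their direction and their side of the threshold, 24 lost the call, 10 gained it and 7 changed direction without being called. The last were Kcnh2 (0.03) at −0.1873 with median-of-ratios scaling, −0.1734 with quantile scaling, −0.0747 without mitochondrially encoded genes, −0.0525 without control replicate 4 and −0.0108 without ANG II replicate 3 (a range of −0.0525 to 0.1531 over the libraries left out), and Kcna4 (0.12) at −0.0595 and Kcne1 (0.26) at −0.0498 with quantile scaling. The genes behind the lost and gained calls were given above, and the cause was not tested.

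The count of channel genes called higher (9) was 4 with a filter at a mean of 1 FPKM, where 27 genes were tested and 18.8% of all genes were called higher and 1.85% lower. It was 4 with quantile scaling (7.3% of all genes tested) and 16 with voom (18.9%). By adjusted p alone 14 channel genes were higher and 9 lower, beside 28.4% and 4.91% of all genes tested, and with a fold threshold of 1 the counts were 1 and 0, beside 3.96% and 0.145%. Leaving out 1 library gave 8 to 10 higher and 3 to 5 lower, beside 12.8% to 14.5% and 1.24% to 1.49% of all genes tested, with the fewest lower without ANG II replicate 1. The median log2 fold change of the tested channel genes (0.04) was 0.16 with a pseudocount of 0.1, −0.13 with the filter at 1 FPKM, −0.0056 with median-of-ratios scaling, −0.0674 with quantile scaling and 0.24 with voom, and 0.0179 to 0.0796 without 1 library. In the same order, the median of all genes tested (0.15) was 0.22, 0.19, 0.0042, −0.0436 and 0.23, and 0.137 to 0.156 without 1 library. For partners, the 1 called higher and 1 called lower became 2 and 1 by adjusted p alone, and 0 and 0 with a fold threshold of 1. With the replicate block, 9 channel genes were called higher and 5 lower, the same 14 genes, beside 13.9% and 1.38% of all genes tested.

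Genes under about 10 fragments per library limit the precision, Kcne3 and Kcnj14 above all. Fragments were recovered from the steps of the values.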
